A study of Triticum aestivum with 24 samples.

Results

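Molly is a wheat line that carries H13, a gene for resistance to the Hessian fly, and its interaction with the larvae is labelled incompatible. The tissue was the part of the second leaf sheath where the larvae settle and feed. The comparison takes 6 of the 24 arrays of the series: 3 of infested Molly sheaths at 24 h after egg hatch and 3 of infested Molly sheaths at 12 h, taken by their titles. The change between them, 24 h minus 12 h on the log2 scale, is called the Molly step. The other infested Molly arrays were taken at 6 h. Newton, the susceptible line, whose interaction is labelled compatible, was sampled at the same 3 times. Each line also had 3 arrays of sheaths without larvae, taken at 12 h only. All plants were seedlings infested at the 2-leaf stage, from eggs of 10 mated females for 10 plants. The labels call the replicates of infested sheaths biological, and they only number those of sheaths without larvae. Because sheaths without larvae were taken at 1 time, time since hatch, plant age and hour of the day cannot be told apart in the Molly step. Where infested sheaths at 6 h or 24 h are set against those without larvae, the presence of larvae cannot be told apart from plant age and hour of the day.

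Hessian fly larvae crawl to the base of the sheath and inject saliva into epidermal cells. In a compatible interaction the plant forms a nutritive tissue and becomes stunted. In an incompatible one the larvae die within days, and defence proteins such as lectins and enzyme inhibitors, wall reinforcement and lipid transfer proteins are known from such plants. Total RNA of a sheath piece holds many cells that no larva touched, and fewer cells of a type and less RNA per cell cannot be told apart in it.

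The deposited MAS5 values give 1 linear signal for each probe set, in arbitrary units. The summed signal of the 6 arrays was 45650000 to 47000000, and their median signal was 87.4 to 92.3. Pearson's r of log2 signal was 0.958 to 0.972 within a time and 0.923 to 0.955 across the 2 times. A principal component analysis of these 6 arrays put 48.9% of the variance on its first axis, where the 24 h arrays lay at 25.9, 54.6 and 83.2, and the 12 h arrays lay at -49.3, -60.9 and -53.5. Replicate 1 at 24 h therefore lay nearest to the 12 h arrays and replicate 3 farthest from them. Photosynthesis genes, the marker of green leaf tissue, summed to 120000 to 134000 at 24 h and 126000 to 129000 at 12 h over 37 probe sets. Of these, 19 stayed within the range of the 8 tag controls, which match no wheat transcript, on all 6 arrays. Another 13 lay above that range on all 6. Of 21 seed storage and anther probe sets, 17 stayed within the range and 3 lay above it on all 6 arrays. Their sums were 4000 to 4540 at 24 h and 4640 to 5170 at 12 h. The wheat 18S rRNA control read 1830, 2350 and 4210 at 24 h, against 1430, 1720 and 1460 at 12 h. These groups did not overlap (difference 0.78 on the log2 scale, two-sided exact permutation p = 0.1, the smallest that 3 against 3 allows, and 0.27 after adjustment over 8 RNA quality controls). The ratios of 3' to 5' control signal for CYP86 and gapdh gave the same p and adjusted p in that test. Their log2 differences, 24 h minus 12 h, were 0.71 for CYP86 and -0.51 for gapdh. The remaining ratios gave a p of 0.2 or more.

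The sheaths of the resistant line changed widely between these times. Of 36707 tested probe sets, 6110 passed an adjusted p of 0.05 in limma's moderated test (16.6%), of which 3154 rose (8.59% of those tested) and 2956 fell (8.05%). Most of these changes were small: the median size was 1.6-fold for those that rose and 1.65-fold for those that fell. At least 2-fold changes were called for 1718 probe sets (4.68%), 808 of them up and 910 down. At least 8-fold changes numbered 36 up and 65 down, many of them fitted against a group at background level. They numbered 24 up and 40 down with 16 added to each signal before the log, and 91 up and 135 down when dim probe sets were kept. For 32.7% of tested probe sets the 24 h and 12 h signals did not overlap. The count of calls depended on single arrays: it was 6912 without replicate 1 at 24 h and 3706 without replicate 3 at 24 h. It was 4005 with the 18S rRNA signal as a covariate. Set against Molly without larvae, 37.7% of tested probe sets were called at 6 h, 34.1% at 12 h and 23.9% at 24 h. These 3 comparisons use the same arrays without larvae, and the differences between the shares were not tested. The 18S rRNA control read 3940, 5090 and 6770 in Molly without larvae, and 1510, 1650 and 2510 in infested Molly at 6 h. How the comparisons with no larvae depend on that control was not tested.

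The largest changes were on probe sets for which the supplied annotation gives no gene, and they are given by ID. TaAffx.114127.1.S1_x_at had signals of 2670, 2580 and 4030 at 24 h, against 8.21, 20.7 and 23.2 at 12 h. Its 12 h signals lay within the range of the tag controls, which reached 85.0, so its rise was at least 35.7-fold when the lower group is set at that value. Its mean was 2070 in infested Molly at 6 h and 19.1 in Molly without larvae, and in infested Newton it was 2350 at 6 h, 8.39 at 12 h and 2900 at 24 h. It was therefore high at 6 h and 24 h and at background level at 12 h in both lines. Ta.22101.1.A1_at read 801, 1140 and 1200 at 24 h, against 7.0, 9.33 and 8.55 at 12 h, a rise of at least 12.1-fold.

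Among the falls, Ta.13378.1.A1_at read 33.7, 45.6 and 77.6 at 24 h, against 2470, 2620 and 2620 at 12 h. The 24 h arrays were all at background level and the 12 h arrays lay close together, which puts the fall at 30.2-fold or more (limma adjusted p = 1.6e-12). Its mean was 61.0 at 6 h and 1180 in Molly without larvae. Newton fell too, with a mean of 159 at 24 h and 1800 at 12 h. Ta.22766.1.S1_a_at read 18.4, 18.1 and 36.5 at 24 h, against 1490, 1240 and 1840 at 12 h, and fell by at least 17.7-fold. All 4 of these probe sets kept their call under every alternative in which they were tested, 15 for Ta.22101.1.A1_at and 16 for each of the others.

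A pair of comparisons that share no array with the Molly step were set beside it: the same step in infested Newton, and infested Molly at 6 h against Molly without larvae. All were made in the same fit, in which the groups share an estimate of the spread of each probe set. A probe set with a small spread is thus called more readily in each comparison, which can raise the overlaps. How far it did was not tested. Of the 3154 probe sets that rose in Molly, 654 also rose in Newton (20.7% of the Molly list and 33.3% of the Newton list, against 5.35% of all tested probe sets) and 35 fell there. Of the 2956 that fell in Molly, 784 also fell in Newton (26.5% of the Molly list and 33.7% of the Newton list, against 6.33% of all tested) and 58 rose. The 2 steps correlated at r = 0.575 over the 6110 called probe sets and at 0.29 over all tested ones, as a description across probe sets, which are not independent. Against Molly without larvae, infested Molly at 6 h had lower signal for 1522 of the 3154 that rose (48.3%, against 19.5% of all tested) and higher signal for 520 (16.5%, against 18.3%). For the 2956 that fell, it had higher signal for 1111 (37.6%, against 18.3% of all tested) and lower signal for 576 (19.5%, against 19.5%).

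**Figure D1:**
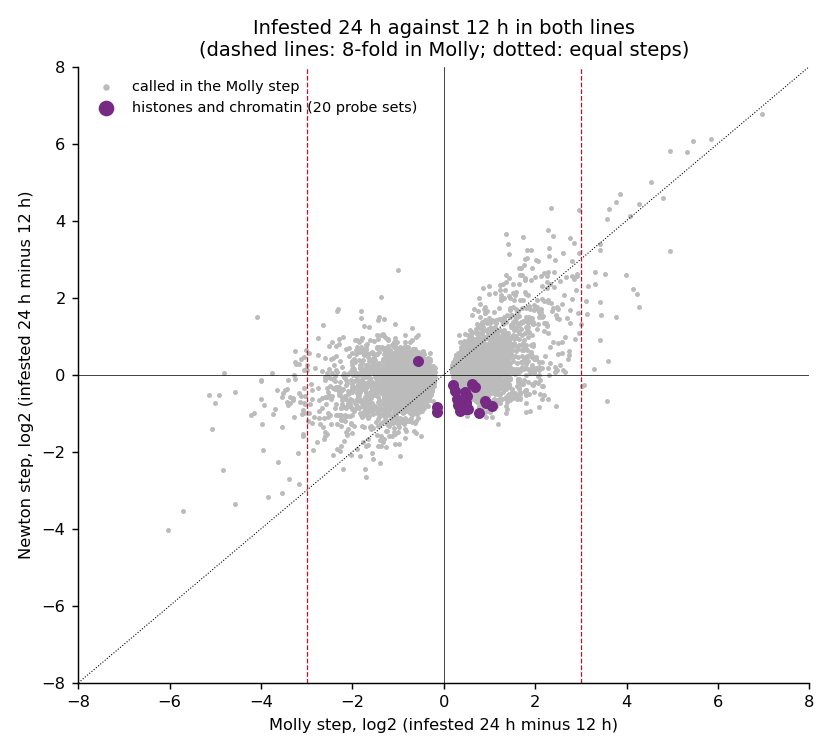
Each point is 1 of the 6110 probe sets called in the Molly step, with its log2 change at 24 h against 12 h in infested Molly (x axis) and in infested Newton (y axis); purple points are the 20 histone and chromatin probe sets, called or not. Points along the dotted diagonal moved alike in both lines, the dashed lines mark 8-fold in Molly, and all but 1 of the histone points lie below 0 on the Newton axis.

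Small and large rises differed in what the same probe sets did elsewhere. Among the 2346 rises under 2-fold, 16.7% also rose in Newton, 11.4% had been higher in infested Molly at 6 h than without larvae, and 52.9% had been lower. Among the 36 rises of at least 8-fold, 72.2% also rose in Newton, 66.7% had been higher at 6 h than without larvae, and 5.56% had been lower. The sizes between these lay between them in all 3 shares. Among falls the share that also fell in Newton was 27% under 2-fold and 23.1% at 8-fold or more, but 40.5% of the 74 largest falls when arrays were weighted. In that fit Newton replicate 1 at 12 h had a weight of 4.15, against 0.472 and 0.392 for replicates 2 and 3, so it rests largely on a single Newton array at 12 h. Differences between the size classes were not tested, and large changes are called more readily than small ones. The filter on dim probe sets used the mean over all 24 arrays, with the Newton and 6 h arrays among them. A probe set at background level in Molly at 12 h was thus kept more readily if it was high in those arrays. The shares among large rises therefore depend in part on the filter. Over the alternatives the share of large rises that also rose in Newton ranged between 37.4%, when dim probe sets were kept and 91 rises reached 8-fold, and 95.8%, with 16 added to each signal and 24 such rises. It was 94.1% when the dimmest 60% of probe sets were left out, 85.7% without replicate 3 at 24 h and 54.3% without replicate 2 at 12 h.

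**Figure D2:**
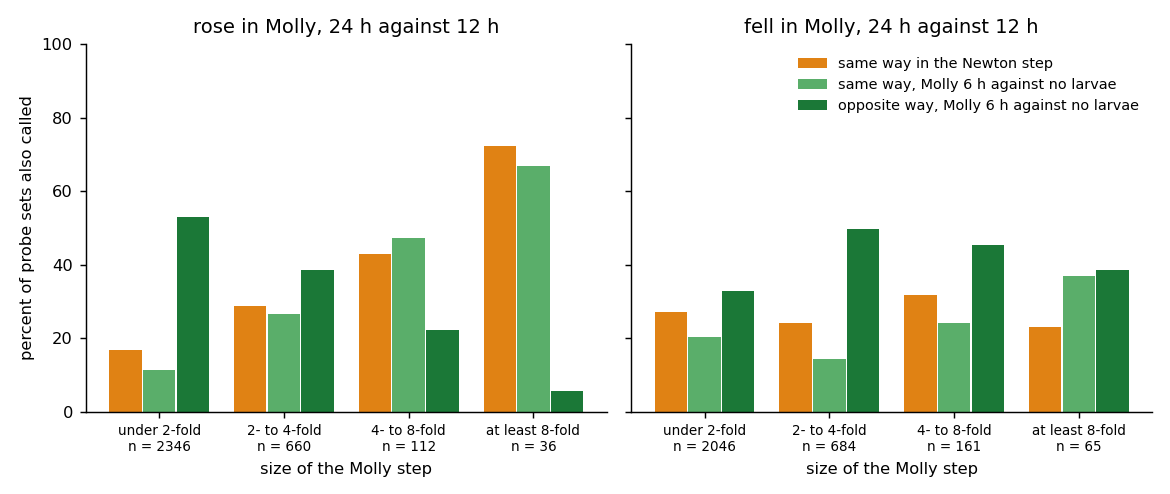
Percent of the probe sets that rose (left) or fell (right) in the Molly step, by the size of the step, that were also called the same way in the Newton step, or called the same or the opposite way in infested Molly at 6 h against Molly without larvae. Among rises the share also called in Newton is 16.7% in the smallest class and 72.2% in the largest, while among falls it is 27% and 23.1%. Dim probe sets were left out by their mean over all arrays of both lines, so the shares depend in part on that filter.

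The large changes were grouped by their steps between 12 h and 24 h in both lines, so their levels at those times follow from that choice. Their levels at 6 h depend in part on the filter, which used the 6 h arrays too. In the median, the 26 large rises that Newton shared were low at 12 h and high at 6 h and 24 h. Their median signal was 87.9 in Molly without larvae, 814 at 6 h, 114 at 12 h and 1350 at 24 h, and 23 of the 26 were called higher at 6 h than without larvae. In infested Newton their median was 730 at 24 h and 105 at 12 h. The 10 large rises that were not called higher in Newton were dim before 24 h, with a median of 248 at 24 h and 22.3 at 12 h, and only 1 of them was called higher at 6 h than without larvae. The 15 large falls shared with Newton ran the other way, with a median of 525 without larvae, 66.8 at 6 h, 965 at 12 h and 64.5 at 24 h, and 13 of them were called lower at 6 h. The 50 large falls not called in Newton had a median of 64.2 at 24 h and 667 at 12 h in Molly, against 325 at 24 h and 545 at 12 h in Newton. Their median was 132 in Molly without larvae and 224 in infested Molly at 6 h. At 6 h 23 of them were called higher than without larvae and 11 lower. The medians of 64.5 and 64.2 at 24 h, 66.8 at 6 h and 22.3 at 12 h lay within the range of the tag controls, which reached 85.0.

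The supplied annotation named 98 genes by their function, and 75 of them, with 130 probe sets, were bright enough to test. Of these probe sets 14 rose and 10 fell in Molly, 18.5% in all, a share near that of all tested probe sets (16.6%). Their median change was -0.04 on the log2 scale, against 0.01 over all tested probe sets. Only the bright probe sets of CAT1, GAPN, AGA.1 and Eif4B kept their call under all 16 alternatives among the called genes. The rest lost it under at least 1 of them, and single arrays that ended a call are named for the probe sets whose array values are given. Of the 24 called probe sets, 15 lost their call when 18S rRNA signal was a covariate (adjusted p = 0.051 to 0.16) and 10 without the intensity trend (0.05 to 0.076). When only the infested Molly arrays at 12 h and 24 h were fitted, 13 lost it (0.062 to 0.14). The changes kept their sign in each of these fits.

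**Figure D3:**
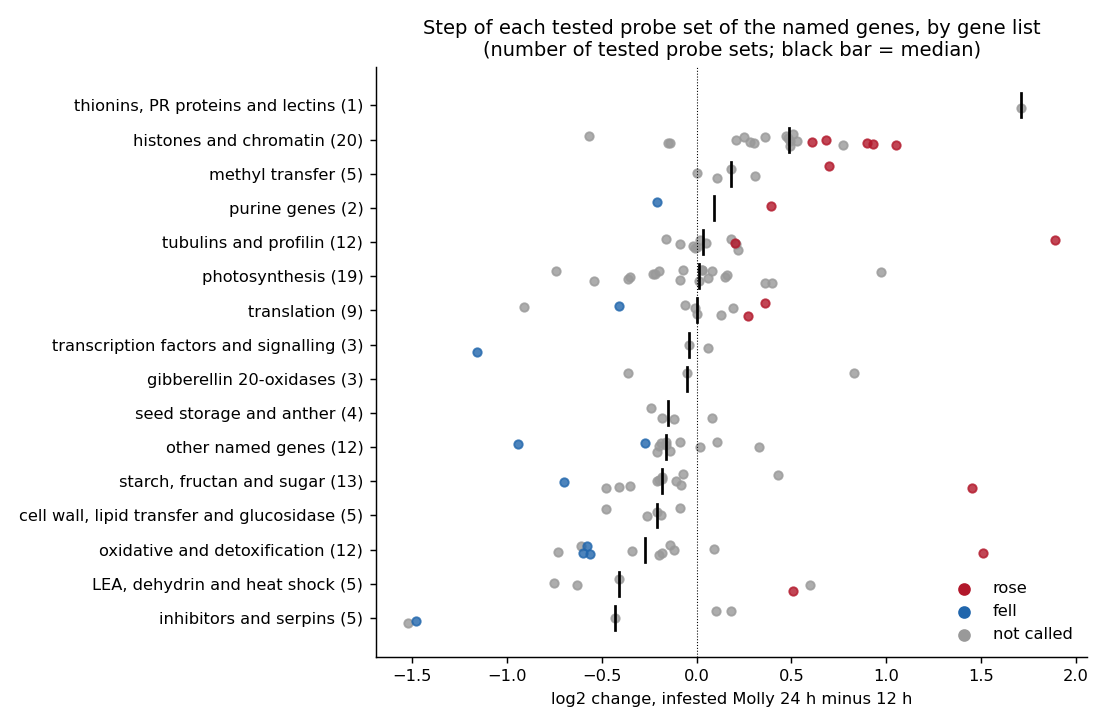
Log2 change of each of the 130 tested probe sets of named genes in infested Molly, 24 h minus 12 h, grouped by gene list, with called probe sets in red (rose) or blue (fell) and the list median as a black bar. Most points lie within 0.5 of 0, and single genes such as TUBA at 1.89 and XIP-I at -1.48 stand out from their lists.

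Of the 12 probe sets for tubulins, the subunits of microtubules, and the actin-binding protein profilin, 2 rose and none fell, with a list median of 0.04. That is 16.7% called, against 16.6% of all tested probe sets. TUBA, an alpha-tubulin, read 2520, 1750 and 2100 on probe set Ta.723.1.S1_at at 24 h, against 679, 622 and 430 at 12 h. The 24 h arrays were all far above the 12 h arrays (log2 change 1.89, SE 0.52, limma adjusted p = 0.015), and the call ended without replicate 3 at 12 h (1.69, adjusted p = 0.067) and with the 18S covariate (1.31, adjusted p = 0.11). Its mean had been 2030 at 6 h and 210 in Molly without larvae, so it too was high at 6 h and 24 h with a lower value between. Newton had means of 1590 at 24 h and 701 at 12 h (difference of the steps 0.19, limma adjusted p = 0.91). The other TUBA probe set, Ta.812.1.S1_x_at, did not follow, with 20800 at 24 h and 22200 at 12 h (log2 change -0.09, adjusted p = 0.46). The beta-tubulin tubb3 rose slightly, with 17300, 17500 and 17900 at 24 h against 15500, 15500 and 14900 at 12 h. These sets do not overlap, though the change was 0.2 on the log2 scale (limma adjusted p = 0.016), and its call ended without replicate 3 at either time (adjusted p = 0.067 at 24 h and 0.069 at 12 h).

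Among 12 probe sets for enzymes that remove peroxides and detoxify reactive compounds, 1 rose and 3 fell, with a median of -0.27 (33.3% called, against 16.6% of all tested). CAT1, a catalase that breaks down hydrogen peroxide, rose: its signal was 313, 305 and 505 at 24 h, against 111, 171 and 111 at 12 h (log2 change 1.51, SE 0.3, limma adjusted p = 0.0015). All 24 h arrays exceeded all 12 h arrays. At 12 h its mean of 131 was near the 130 of Molly without larvae, while at 24 h it was 374 (24 h against no larvae, log2 change 1.56, adjusted p = 0.00076). CAT1 rose in Newton too, with 395 ± 84.0 at 24 h and 154 ± 34.9 at 12 h (mean ± SD, n = 3 arrays each). The Newton change was 1.37 (limma adjusted p = 0.006), and the difference of the steps was 0.14 (SE 0.43, adjusted p = 0.89). TaPrx1 fell on 3 of its 4 probe sets. The brightest read 4120, 5060 and 5600 at 24 h, against 6540, 7760 and 7940 at 12 h (log2 change -0.6, SE 0.16, limma adjusted p = 0.012). Its groups did not overlap, and the means without larvae and at 6 h were 8350 and 5630. The call ended without replicate 1 at 24 h (adjusted p = 0.057) or replicate 3 at 12 h (adjusted p = 0.054).

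GSTZ1, a glutathione transferase, was not called on any of its 3 probe sets, whose log2 changes were -0.73, -0.61 and 0.09 (limma adjusted p = 0.11, 0.13 and 0.91). All 3 stayed above Molly without larvae at 24 h, by 1.07 to 1.78 on the log2 scale. Glyoxalase, the product of lgul, was not called either, with 1100 at 24 h and 1400 at 12 h on its first probe set.

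Of 13 probe sets for starch, fructan and sugar metabolism, 1 rose and 1 fell (median -0.18, with 15.4% called, against 16.6% of all tested). GAPN, the non-phosphorylating glyceraldehyde-3-phosphate dehydrogenase that yields NADPH in the cytosol, read 452, 634 and 723 at 24 h, against 186, 204 and 269 at 12 h (log2 change 1.45, SE 0.29, limma adjusted p = 0.0014). Every 24 h array lay above every 12 h array. Its mean was 89.4 in Molly without larvae, sampled at 12 h only, and 323 in infested Molly at 6 h. The infested means thus lay above 89.4 at each time and were highest at 24 h. In Newton the mean was 343 at 24 h and 101 at 12 h, and the difference of the steps was -0.28 (adjusted p = 0.75). AGA.1, a subunit of ADP-glucose pyrophosphorylase, which makes the sugar donor for starch, read 1110, 1210 and 1220 at 24 h, against 1650, 1840 and 2310 at 12 h. It fell with no overlap (log2 change -0.7, SE 0.13, limma adjusted p = 0.00089), and its means without larvae and at 6 h were 1780 and 1360. In Newton it fell as well, with 1380 at 24 h and 2050 at 12 h (-0.55, adjusted p = 0.0097), and the difference of the steps was -0.14 (SE 0.19, adjusted p = 0.72). A dimmer AGA.1 probe set was not called (-0.41, adjusted p = 0.42), nor was AGP-S, another subunit gene of the enzyme, with 5060 at 24 h and 5750 at 12 h (adjusted p = 0.086).

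**Figure D4:**
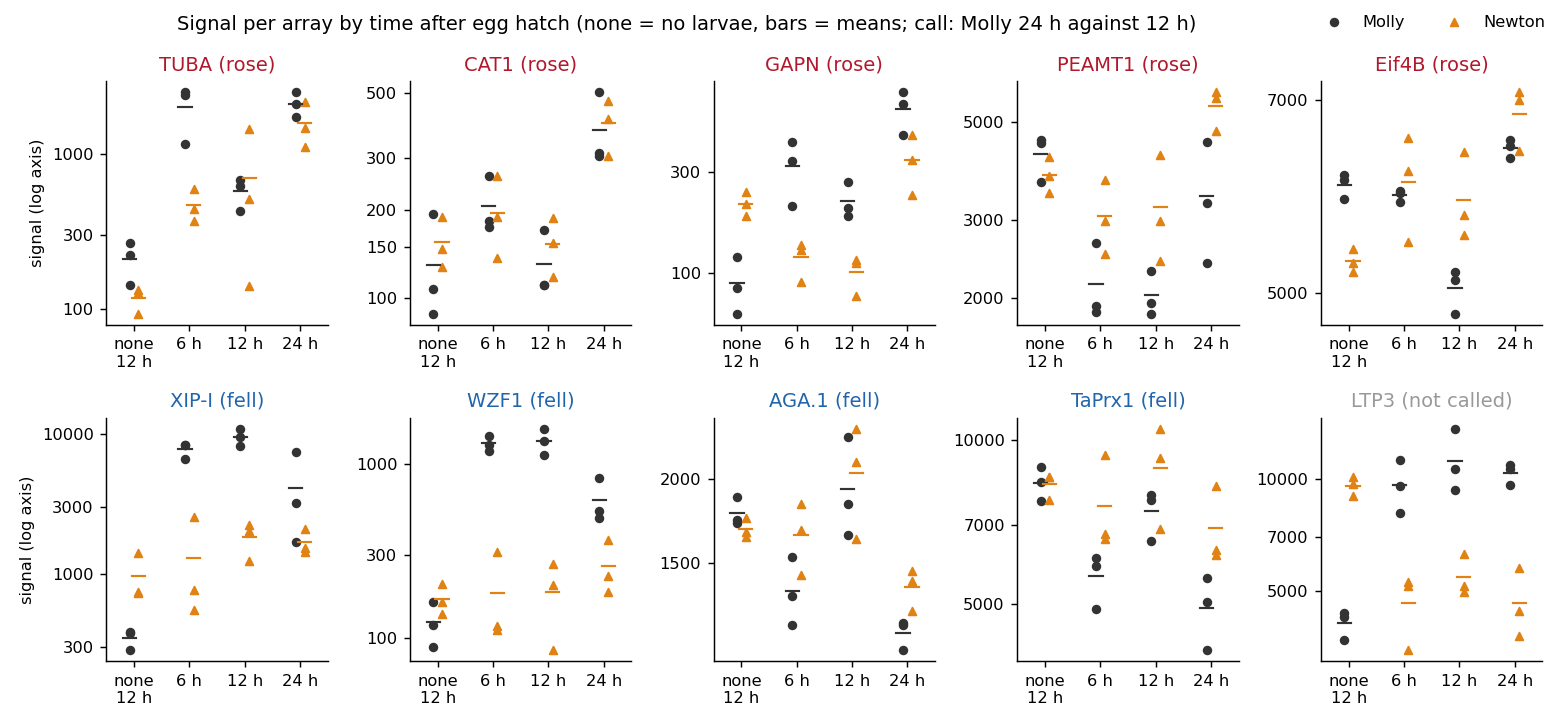
Signal (log axes that differ between panels) of 10 named genes on each array of Molly (black circles) and Newton (orange triangles), without larvae at 12 h and with larvae at 6, 12 and 24 h after egg hatch; bars are means of 3 arrays. TUBA is high in infested Molly at 6 h and 24 h, XIP-I and WZF1 are high at 6 h and 12 h and lower at 24 h, and the LTP3 arrays of infested Molly overlap between 12 h and 24 h.

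The inhibitor of fungal xylanases XIP-I and the zinc finger protein WZF1 came down from high levels. XIP-I read 7480, 3200 and 1680 at 24 h, against 9600, 10900 and 8260 at 12 h, on probe set Ta.1200.1.S1_at. All 24 h arrays lay below all 12 h arrays, but replicate 1 lay close to them (log2 change -1.48, SE 0.46, limma adjusted p = 0.033). Its mean was 351 in Molly without larvae, so at 24 h it was still above that level by 3.3 on the log2 scale (adjusted p = 3e-05). Infested Newton had 1700 ± 360 at 24 h and 1840 ± 535 at 12 h, and the difference of the steps, -1.38, did not pass the test (adjusted p = 0.23). The second XIP-I probe set, with 7370, 2670 and 1500 at 24 h against 8680, 11100 and 7180 at 12 h, overlapped on 1 array and missed the threshold (-1.52, adjusted p = 0.052). The change of the first was -2.04 without replicate 1 at 24 h (adjusted p = 0.003) and -0.96 without replicate 3 at 24 h (adjusted p = 0.22). Its call also ended without replicate 2 at 24 h (adjusted p = 0.089), without any 1 of the 12 h arrays (adjusted p = 0.058 to 0.1), and when the 18S rRNA signal entered as a covariate (adjusted p = 0.13).

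WZF1, of the Cys2/His2 class of zinc fingers, read 834, 540 and 487 at 24 h, against 1350, 1590 and 1130 at 12 h. It fell with no overlap (log2 change -1.16, SE 0.39, limma adjusted p = 0.045) and stayed above the 123 of Molly without larvae (24 h against no larvae, 2.33, adjusted p = 0.00018). Infested Newton had 259 ± 95.7 at 24 h and 184 ± 91.5 at 12 h, and the difference of the steps was -1.74 (adjusted p = 0.064). Its call ended without any 1 of the 12 h arrays and without replicate 2 or 3 at 24 h (adjusted p = 0.065 to 0.17), and in 10 of the 16 alternatives in all. The other 3 tested genes of the inhibitor list, ATI, WMAI-1 and wci, were dim, between 46.3 and 153 at 24 h, and were not called.

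The 5 probe sets for cell wall and lipid transfer genes had no call, with a median of -0.21, while 16.6% of all tested probe sets were called. LTP3, a lipid transfer protein that carries lipids to the cell surface, had 10400 ± 672 at 24 h and 11200 ± 2180 at 12 h on its bright probe set (mean ± SD, n = 3 arrays each). The groups overlapped (-0.09, SE 0.17, limma adjusted p = 0.79), and both were above the 4110 of Molly without larvae (24 h against no larvae, 1.34, adjusted p = 8.3e-06). The wall-loosening enzyme gene XTH had 3560 ± 289 at 24 h and 4070 ± 74.0 at 12 h (-0.19, adjusted p = 0.56). The beta-glucosidase TaGlu1a had 25200 ± 625 and 29200 ± 288 at those times. Its arrays did not overlap, yet it did not pass the test (-0.21, adjusted p = 0.1).

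Of the 5 probe sets for stress proteins, 1 rose and none fell (20% called, against 16.6% of all tested). FKBP70, a peptidyl-prolyl isomerase of the immunophilin family that works with heat shock proteins, read 9340, 11200 and 12600 at 24 h, against 7710, 7930 and 7490 at 12 h. All 24 h arrays were higher (log2 change 0.51, SE 0.14, limma adjusted p = 0.016), and its mean had been 13100 at 6 h and 9140 without larvae. The call ended without replicate 2 or 3 at 24 h (adjusted p = 0.053 and 0.1) or replicate 3 at 12 h (adjusted p = 0.055). Newton rose too, with 15300 at 24 h and 10000 at 12 h (0.65, adjusted p = 0.0051). The dehydrin Rab15, a protein of drying tissue, had 247 ± 106 at 24 h and 354 ± 25.9 at 12 h, which overlapped (-0.63, adjusted p = 0.32). Wheat germ agglutinin WGA2, a chitin-binding lectin, had 196 ± 74.0 at 24 h and 77.3 ± 67.8 at 12 h, and its change of 1.71 had an SE of 0.78 (adjusted p = 0.15). The 12 h mean lay within the range of the tag controls, which reached 85.0, so the size of this change is uncertain. Thionins and PR5 were too dim to test.

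Of 16 tested probe sets for methyl transfer, purine metabolism and translation, 6 were called, each with a change under 2-fold. The shares called were 20% of 5, 100% of 2 and 33.3% of 9 probe sets in these lists, against 16.6% of all tested probe sets. PEAMT1, the phosphoethanolamine methyltransferase of choline synthesis, read 2390, 3270 and 4510 at 24 h, against 1840, 1940 and 2300 at 12 h. The lowest 24 h array lay just above the highest 12 h array (log2 change 0.7, SE 0.21, limma adjusted p = 0.025), and the call ended without replicate 2 or 3 at 24 h (adjusted p = 0.062 and 0.18, the change being 0.47 without replicate 3) or replicate 1 or 2 at 12 h (adjusted p = 0.082 and 0.077). Its mean was 4230 in Molly without larvae and 2150 at 6 h, so the 24 h mean of 3390 was nearer to the level without larvae than the 12 h mean of 2030. AdSS, adenylosuccinate synthetase of the pathway to AMP, read 3150, 3590 and 3760 at 24 h, against 2980, 2460 and 2600 at 12 h, and rose by 0.39 (adjusted p = 0.028). Its call ended without replicate 2 or 3 at 24 h (adjusted p = 0.087 and 0.13) or at 12 h (adjusted p = 0.12 and 0.086). APRT, which salvages adenine, fell by 0.21 on the log2 scale, with 12700, 12000 and 11100 at 24 h against 14100, 14000 and 13400 at 12 h (adjusted p = 0.013), and its call ended without replicate 3 at 24 h (adjusted p = 0.098) or replicate 2 at 12 h (adjusted p = 0.051).

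Of 9 probe sets for translation, 2 rose and 1 fell, with a median of 0 (33.3% called, against 16.6% of all tested). The initiation factor Eif4B read 6330, 6460 and 6530 at 24 h, against 5180, 4820 and 5110 at 12 h, a small step with tight replicates (log2 change 0.36, SE 0.07, limma adjusted p = 0.001). Its mean was 6040 without larvae, so the 12 h mean of 5040 was the low one. The initiation factor eIF-2-beta rose by 0.27 (adjusted p = 0.022), with 5730, 5890 and 6610 at 24 h against 5380, 4450 and 5320 at 12 h. Its call ended without replicate 3 at 24 h (adjusted p = 0.14) or replicate 2 at 12 h (adjusted p = 0.15). The ribosomal protein RPL9 fell by 0.41 on the log2 scale (adjusted p = 0.047), with 3890, 4470 and 4730 at 24 h against 4990, 5930 and 6540 at 12 h. Its call was lost under 11 of the 16 alternatives, among them the fits without any 1 of the 24 h arrays (adjusted p = 0.061 to 0.15) or without replicate 2 or 3 at 12 h (adjusted p = 0.12 and 0.19). TEF1, an elongation factor, had 27400 at 24 h and 27500 at 12 h. Outside the translation list, TSA fell by 0.27 on its bright probe set (adjusted p = 0.01), with 16500, 17000 and 17700 at 24 h against 20100, 20400 and 21500 at 12 h. This call ended without replicate 3 at 12 h (adjusted p = 0.052). The other TSA probe set fell more, with changes of -1.09 to -0.68 over the alternatives, and its call was lost in 7 of the 16.

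Photosynthesis gave no call in 19 tested probe sets, with a median of 0.01, while 16.6% of all tested probe sets were called. The large subunit gene of Rubisco, rbcL, had 36000 at 24 h and 37800 at 12 h on its brightest probe set (-0.07, limma adjusted p = 0.59). The 3 tested gibberellin 20-oxidases, enzymes that make growth-promoting gibberellins, and the 4 tested seed storage probe sets had no call either. GA20ox1d had 201 at 24 h and 209 at 12 h. TCTP, an abundant growth-associated protein, had 25700 at 24 h and 28300 at 12 h (adjusted p = 0.22), and TBP1, the TATA-binding protein, had 1370 and 1410.

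Genes of histones, which package newly made DNA, and of the chromatin protein Hmgb3 held 13 of the 16 named probe sets whose step differed between the lines, 11 for histones and 2 for Hmgb3. Of 20 probe sets for 6 histone and chromatin genes, 5 rose in Molly (against 8.59% of all tested probe sets) and none fell, with a median step of 0.48 and 17 of 20 above 0. In Newton none rose and 9 fell (against 6.33% of all tested), with a median step of -0.74 and 19 of 20 below 0. The difference of the steps, Molly minus Newton, was called for 13 of the 20, all positive (median 1.08, against 0.03 over all tested probe sets, of which 2203, or 6%, were called, 3.05% positive and 2.95% negative). The probe sets measure closely related genes and may share transcripts, so the 20 are not independent.

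The largest histone rise in Molly was that of wcH2B-8, which read 695, 1090 and 1980 on probe set Ta.7378.17.S1_x_at at 24 h, against 640, 440 and 599 at 12 h. The lowest 24 h array was only just above the highest 12 h array (log2 change 1.05, SE 0.35, limma adjusted p = 0.041). The call ended without replicate 2 or 3 at 24 h (adjusted p = 0.083 and 0.27, the change being 0.65 without replicate 3) or any 1 of the 12 h arrays (adjusted p = 0.055 to 0.16). Its mean was 1880 in Molly without larvae, 470 at 6 h, and 550 in infested Newton at 24 h, against 1070 in infested Newton at 12 h. The difference of the steps was 1.87 (SE 0.49, adjusted p = 0.028). wcH2B-6 rose by 0.68 (adjusted p = 0.027), with means of 14700 ± 2850 at 24 h and 9360 ± 2740 at 12 h, and its call ended without replicate 2 or 3 at 24 h (adjusted p = 0.094 and 0.13) or replicate 2 at 12 h (0.42, adjusted p = 0.19). wcH2A-9 was not called in Molly on any of its 6 probe sets, with changes of 0.21 to 0.77, while its difference of the steps was called on 4. Hmgb3, a high mobility group chromatin protein, had 15300 ± 2150 at 24 h and 16800 ± 618 at 12 h (-0.14, adjusted p = 0.54), while in Newton it fell (9270 ± 636 and 17100 ± 4450 at those times, -0.85, adjusted p = 0.00037).

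**Figure D5:**
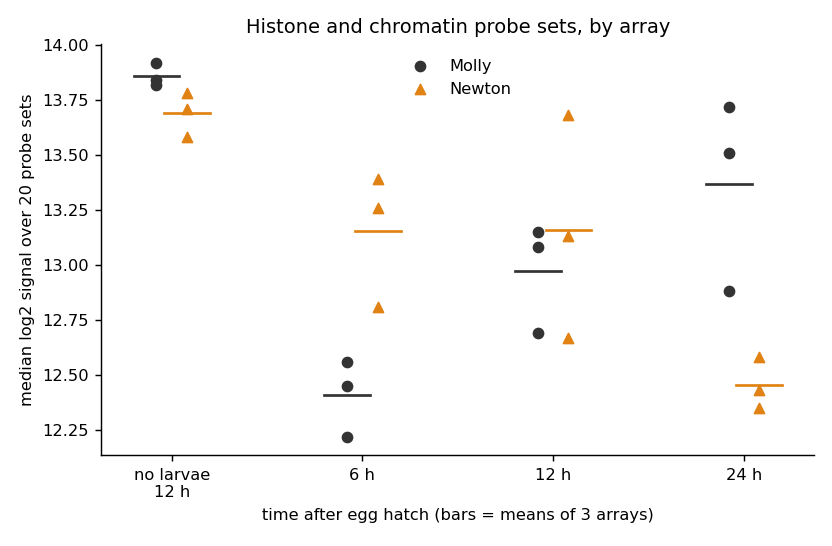
Median log2 signal over the 20 histone and chromatin probe sets on each array of Molly (black circles) and Newton (orange triangles), without larvae at 12 h and with larvae at 6, 12 and 24 h after egg hatch; bars are means of 3 arrays. At 24 h the Molly arrays lie at 12.88, 13.51 and 13.72 and the Newton arrays at 12.58, 12.43 and 12.35.

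By array, the median log2 signal over the 20 histone and chromatin probe sets was 12.88, 13.51 and 13.72 in Molly at 24 h, against 13.15, 12.69 and 13.08 at 12 h. Replicates 2 and 3 at 24 h were above all 12 h arrays on 17 of 20 probe sets, and replicate 1 was below the highest 12 h array on 19. Molly arrays at 6 h were at 12.56, 12.22 and 12.45, and arrays without larvae at 13.92, 13.82 and 13.84. Infested Newton had 12.58, 12.43 and 12.35 at 24 h, against 13.13, 12.67 and 13.68 at 12 h. The 24 h arrays of the 2 lines did not overlap in this median.

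The histone and chromatin calls rested on single arrays. The count of Molly rises was 12 of 20 without replicate 1 at 24 h, 0 without replicate 2 or replicate 3 at 24 h or replicate 2 at 12 h, and 1 without replicate 3 at 12 h. The count of called differences between the lines was 19 without replicate 1 at 24 h, 2 without replicate 2 and 0 without replicate 3 of that group. It was 1 without Molly replicate 2 at 12 h, and 2 without Newton replicate 3 at 12 h or at 24 h. With the 18S rRNA signal as a covariate it was 1, with the median difference at 1.18. The count was 0 when only infested Molly and Newton at 12 h and 24 h entered the fit. The 18S rRNA signal itself was 1830, 2350 and 4210 in Molly at 24 h and 1510, 1070 and 2060 in Newton at 24 h, against 1430, 1720 and 1460 in Molly and 3400, 2800 and 1130 in Newton at 12 h.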

How the data were processed

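The signal values (intensity, linear scale) were deposited by the authors, made with MAS5 per the submitters' processing notes; its version and target are not stated there. From 61290 probe sets, 111 controls and the dimmest 40% of wheat probe sets (by mean of the log2 values on the 24 arrays, up to a mean signal of 44.8) were left out, leaving 36707. A linear model with a mean for each of 8 groups was fitted to the log2 values (limma 3.58.1, R 4.3.3), with an intensity trend in the variance prior (16 residual degrees of freedom, 4.49 from the prior). P-values were two-sided, adjusted by Benjamini-Hochberg over all tested probe sets, and called under 0.05; "rose" and "fell" are used of calls. The fit was tested on simulated data. The deposited values hold no counts, so the number of arrays limits the precision. For the probe sets given by ID, whose lower group lay within the range of the tag controls, a bound is printed, the brighter group's geometric mean over 85.0.

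The supplied annotation gave 1 gene for 1273 probe sets (771 genes, 770 of them in the RefSeq table of names), and none for 59906. Named genes were those with the largest changes, up to 12 in each direction, among those called, with no overlap between the arrays of the 2 times and with the brighter group's mean above the median of 308. Up to 6 each way were added for the difference of the steps, up to 2 called and 1 uncalled gene per list, and 12 genes fixed by name. Up to 2 probe sets without a name were taken each way. Members, gene lists and rules were chosen with earlier results of these data known, and the comparison of Molly at 6 h with no larvae was added after the files had been seen. Genomic positions and sequences were not used here. Same-numbered arrays at 24 h and 12 h did not deviate together (correlations of -0.0324, -0.0706 and 0.0634 in Molly), so the numbers were not taken as pairs. Alternatives were other filters, centring, quantile normalization, a pseudocount of 16, array weights, no intensity trend, the 18S rRNA signal as a covariate and a replicate block. A further fit held only the groups compared. These were infested Molly at 12 h and 24 h for the Molly step, with infested Newton at those times added for the difference of the steps. Arrays of infested Molly and Newton at 12 h and 24 h were left out singly, only those of Molly for the Molly step of named genes. No array at 6 h or without larvae was left out.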

Additional observations from a re-analysis of the deposited data

Results flagged for a closer look

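The step at 24 h against 12 h was compared between infested Molly and infested Newton as a difference of differences in the limma fit, and 2203 probe sets differed (6% of those tested). Among named genes the difference, Molly minus Newton on the log2 scale, was called on the following. On wcH2B-8 it was 1.87, 1.65, 1.59, 1.22 and 0.92 over 5 probe sets (limma adjusted p = 0.022 to 0.03). On wcH2A-9 it was 1.77, 1.42, 1.39 and 1.3 over 4 probe sets (adjusted p = 0.018 to 0.034). wcH2A-3 had 1.09 (adjusted p = 0.047) and wcH2B-6 had 0.98 (adjusted p = 0.049). Hmgb3 had 0.81 and 0.71 on 2 probe sets (adjusted p = 0.017 and 0.031). The steps of the 11 histone probe sets were above 0 in Molly and below 0 in Newton, and those of Hmgb3 were below 0 in both lines.

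Glc1 differed the other way, by -0.74 (adjusted p = 0.04), a call lost in 15 of 22 alternatives, with means of 905 at 24 h and 1080 at 12 h in Molly, and 1050 at 24 h and 767 at 12 h in Newton. SAHH, which clears S-adenosylhomocysteine after methyl transfer, differed by -0.43 and -0.33 on 2 probe sets (adjusted p = 0.017 and 0.033). The first call was lost in 4 of 22 alternatives and the second in 14, both of them under quantile normalization (-0.29 and -0.09, adjusted p = 0.12 and 0.52). The second of these probe sets had 31000 at 24 h and 30900 at 12 h in Molly, and 34000 at 24 h and 27100 at 12 h in Newton. With groups of 3 arrays, no array was tested for standing apart.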

How the results depend on the processing

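The 6110 calls of the Molly step numbered 4005 with the 18S rRNA signal as a covariate and 8518 with array weights. They numbered 4043 when only infested Molly at 12 h and 24 h was fitted. With arrays left out singly they numbered 3706 (without Molly 24 h replicate 3) to 6912 (without Molly 24 h replicate 1). The 2203 differences between lines numbered 695 with the 18S covariate, and 705 when only infested Molly and Newton at 12 h and 24 h were fitted. With array weights they numbered 5180, where the Newton 12 h replicates had weights of 4.15, 0.472 and 0.392. With arrays left out they numbered 784 (without Molly 24 h replicate 3) to 3618 (without Molly 24 h replicate 1). The share of these differences that were positive was 50.8%. It was 40.4% with the 18S covariate and 39.3% with only infested Molly and Newton at 12 h and 24 h. The shared replicate numbers as a block gave 5812 and 1840 calls, of which 5692 and 1808 were shared with the fit without it. Signs turned only for probe sets that were not called: TaPrx1 on its dim probe set (-0.4 to 0.06 with arrays left out, the highest without Molly 24 h replicate 1), GA20ox1d (-0.2 to 0.12, above 0 without Molly 12 h replicate 1 at 0.09 or Molly 24 h replicate 3), LTP3 (-0.21 to 0.06 and -0.74 to 0.02 on 2 probe sets, above 0 without Molly 12 h replicate 2) and the dim probe set of GSTZ1 (-0.12 to 0.28, below 0 without Molly 12 h replicate 1; -0.12 with the 18S covariate and -0.03 with array weights). The cause of these shifts was not tested. Of the values recomputed for named genes and the 4 probe sets given by ID, 1059 kept direction and side of the threshold, 261 lost the call, 28 gained one and 8 changed sign.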
